A study of Mus musculus with 9 samples.

Results

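The genes described here are 10 regulators of the G1 phase of the cell cycle, chosen by name: the CDK inhibitors Cdkn1a, Cdkn1b and Cdkn2c, the pocket proteins Rb1, Rbl1 and Rbl2, the D cyclins Ccnd1, Ccnd2 and Ccnd3, and the kinase Cdk6. Each was found once, by its symbol, among the 22322 genes of the deposited table, and all 10 were among the 10866 genes tested. None passed the filter on low values through 1 group alone, since the lowest group mean was 2.33 FPKM (Cdkn1a in Cxcr3-/-). They were measured by RNA sequencing in long-term haematopoietic stem cells (LT-HSCs) sorted from C57BL/6 mice aged 6 to 8 weeks. The groups were 3 Cxcl10-/- mice, which lack the gene of a chemokine, 3 Cxcr3-/- mice, which lack the gene of its receptor, and 3 WT mice. Each library came from 500 to 800 cells of 1 mouse, sorted from bone marrow as lineage-negative cells with Sca-1 and c-Kit, with CD150, and without CD135 or CD48, and its cDNA was amplified before library preparation. No cell type-specific driver is named for either knockout, and no litter, day or batch is given.

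In G1, D cyclins bind and activate the kinases CDK4 and CDK6, which phosphorylate the pocket proteins RB (Rb1), p107 (Rbl1) and p130 (Rbl2). Unphosphorylated pocket proteins hold E2F transcription factors in check, and p107 or p130 is a subunit of the DREAM complex, which represses cell-cycle genes in resting cells. The INK4 inhibitor p18 (Cdkn2c) blocks CDK4 and CDK6, whereas p21 (Cdkn1a) and p27 (Cdkn1b) bind cyclin-CDK complexes more broadly. LT-HSCs are mostly quiescent, and several of these genes are known from mouse knockouts to affect that state.

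Expected counts summed to between 12098498 and 17904629 per library. Cxcl10 had 0 counts in each Cxcl10-/- library, against 36, 84 and 3 counts in the WT libraries. Cxcr3 had 0 counts in each Cxcr3-/- library, but also 0, 0 and 8 counts in the WT libraries, so its counts do not check the Cxcr3-/- label. The Cxcl10-/- libraries stood apart from the other 6: mitochondrial transcripts took 3.57 to 4.13% of their counts, against 10.2 to 11.2% in Cxcr3-/- and 12.6 to 13.1% in WT. In Cxcl10-/- libraries 12561 to 13910 genes had counts above 0, against 14618 to 18346 in Cxcr3-/- and 14510 to 16023 in WT. Pearson r of log2(FPKM + 1) was 0.8779 to 0.8991 within Cxcl10-/-, 0.9495 to 0.9553 within Cxcr3-/- and 0.9679 to 0.9698 within WT. Every pairwise call among the 10 genes came from a comparison with the Cxcl10-/- libraries. The 12 LT-HSC markers checked were all tested, and their summed level, to which Ly6a alone gave 336, 253 and 313 FPKM on average in Cxcl10-/-, Cxcr3-/- and WT, was 808 to 929 FPKM in Cxcl10-/-, 776 to 853 FPKM in Cxcr3-/- and 819 to 924 FPKM in WT. FPKM are fragment counts scaled to transcript length and library size, so levels of different genes can be set side by side. Slamf1, which encodes the sort marker CD150, had 0.69 to 4.12 FPKM in Cxcl10-/-, 5.65 to 9.24 FPKM in Cxcr3-/- and 5.23 to 7.40 FPKM in WT. Its Cxcl10-/- libraries lay below all others, though the log2 fold change of -1.87 ± 0.69 (SE) against WT did not pass (adjusted p = 0.119, edgeR). Of the 12 markers, only Kit passed, and it was lower in Cxcl10-/- than in WT (log2 fold change -0.75 ± 0.17, SE, adjusted p = 0.026 by edgeR's quasi-likelihood test).

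In WT LT-HSCs the D cyclin Ccnd2 had the highest level of the 10 genes, with 193.40, 157.13 and 140.89 FPKM, above 93.7% of all tested genes. Ccnd3 followed with 48.7 ± 5.87 FPKM (SD, n = 3) and Cdk6 with 30.5 ± 2.82 FPKM. Neither overlapped with its neighbour above. Rbl1 came next at 27.4 ± 2.22 FPKM, then Rbl2 at 20.7 ± 4.64 FPKM and Cdkn2c at 17.8 ± 8.46 FPKM, and from Cdk6 to Cdkn2c the libraries of each neighbouring pair overlapped. Below a gap, the last 4 genes were Ccnd1 at 7.31 ± 1.71 FPKM, Rb1 at 5.61 ± 2.81 FPKM, Cdkn1a at 3.94 ± 1.49 FPKM and Cdkn1b at 3.57 ± 0.836 FPKM. The libraries of each neighbouring pair among these 4 overlapped. The namesake pocket protein Rb1 was thus the least abundant of the 3 pocket protein transcripts on the FPKM scale.

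**Figure D1:**
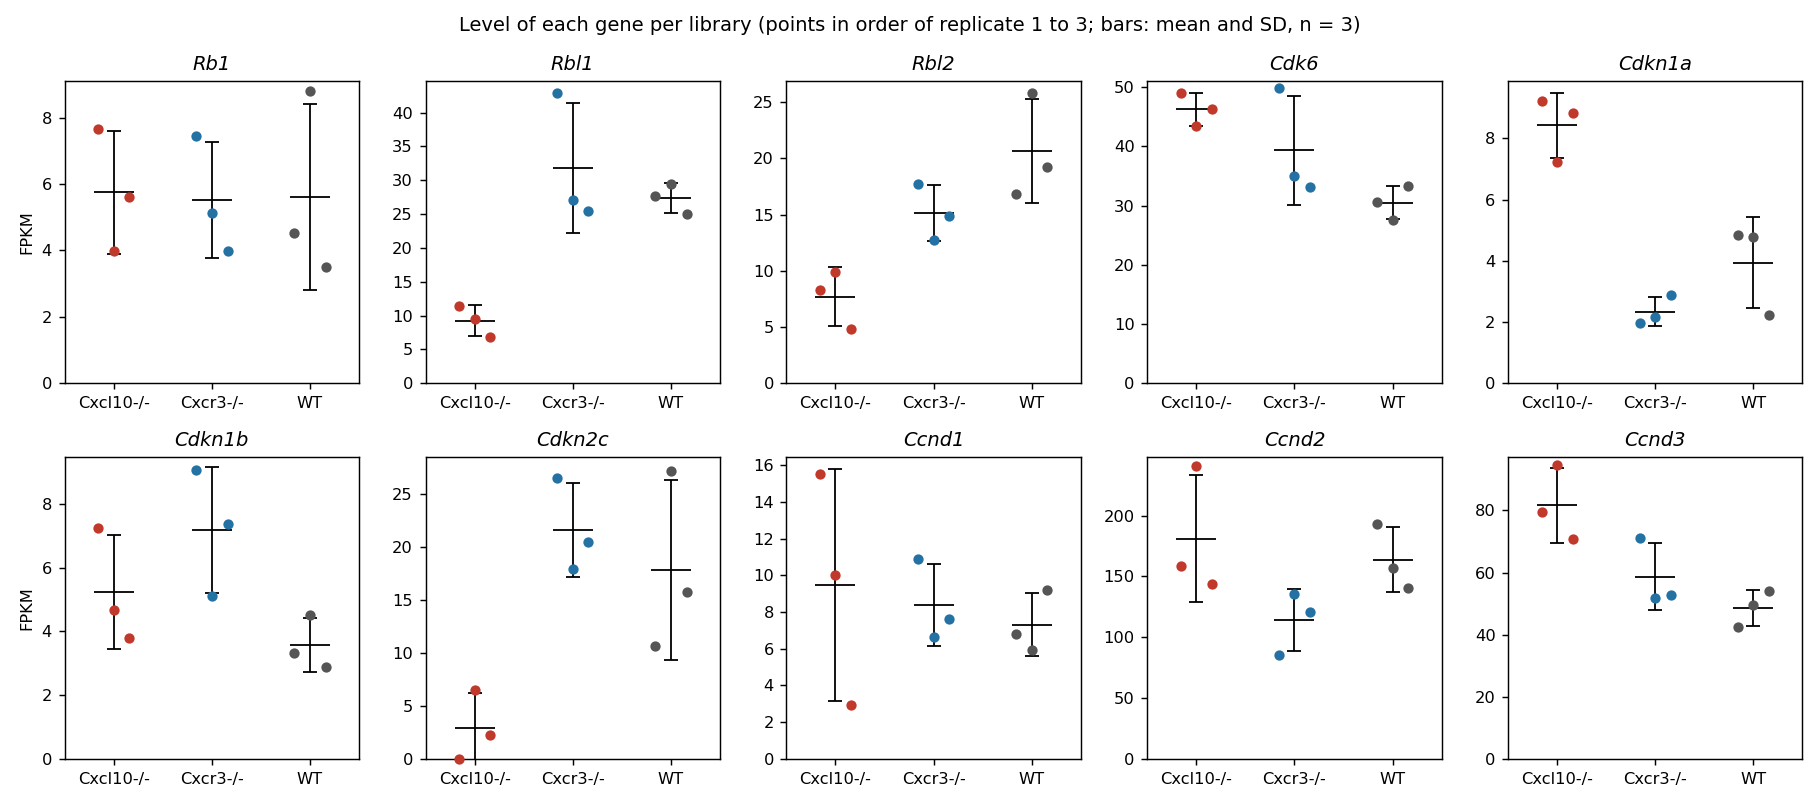
Level of each of the 10 genes in FPKM (vertical axis, linear, from 0) in each library of Cxcl10-/-, Cxcr3-/- and WT LT-HSCs. Points are libraries in order of replicate, the long bar is the mean and the whiskers are the SD (n = 3), ended at 0 for Cdkn2c. The Cxcl10-/- points lie below all WT points for Rbl1, Rbl2 and Cdkn2c, and above them for Cdkn1a, Ccnd3 and Cdk6.

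The first comparison, Cxcl10-/- against WT, bears on the loss of the chemokine. In Cxcl10-/- LT-HSCs the transcripts of the 2 DREAM pocket proteins, Rbl1 and Rbl2, were at 0.316 and 0.345 times the WT level in counts, while Rb1 was at 0.967 times and did not pass. They were the only 2 of the 10 genes called, both lower, at an adjusted p under 0.05 over all tested genes. Among all 10866 genes, 785 (7.22%) were called, 383 (3.52%) higher and 402 (3.7%) lower, and 229, 193 or 253 were called without WT replicate 1, 2 or 3. At an unadjusted p under 0.05 there were 6 of the 10, against 24.3% of all tested genes. In the test of any difference among the 3 genotypes the same 2 of the 10 passed, against 8.39% of all tested genes. The median log2 fold change was 0.16 over the 10 genes and 0.06 over all tested genes. In bulk libraries, fewer cells of a kind and less RNA per cell cannot be told apart.

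Rbl1, which encodes p107, had 11.35, 9.52 and 6.85 FPKM in Cxcl10-/- libraries, against 27.63, 29.48 and 25.05 FPKM in WT libraries. All 3 Cxcl10-/- libraries lay below the lowest WT library. On counts, from which all edgeR values come, the log2 fold change was -1.66 ± 0.24 (SE, 3 libraries a group), a level 3.17-fold lower (adjusted p = 0.00387, edgeR). It passed in 22 of 22 alternative analyses, with an adjusted p between 1.35e-08 and 0.027.

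Rbl2, which encodes p130, the pocket protein most associated with resting cells, had 8.31, 9.93 and 4.82 FPKM in Cxcl10-/- libraries, against 16.87, 25.83 and 19.27 FPKM in WT libraries. The groups did not overlap here either. The log2 fold change was -1.53 ± 0.28 (SE), a level 2.89-fold lower (adjusted p = 0.00869, edgeR). It passed in 21 of 22 alternatives. Without WT replicate 2, which had the highest Rbl2 level of the 9 libraries, it was -1.36 ± 0.31 with an adjusted p of 0.0554.

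Rb1 had 7.66, 3.97 and 5.62 FPKM in Cxcl10-/- libraries, against 4.53, 8.80 and 3.49 FPKM in WT libraries. These ranges overlap almost wholly, and the log2 fold change was -0.05 with a 95% interval of -0.98 to 0.88 (adjusted p = 0.963, edgeR), an interval that still spans differences approaching 2-fold either way. Scaling between libraries cancels in the ratio of 2 genes of 1 library. The Rbl1 to Rb1 ratio of FPKM was 1.48, 2.40 and 1.22 in Cxcl10-/-, against 6.10, 3.35 and 7.18 in WT. The Rbl2 to Rb1 ratio was 1.09, 2.5 and 0.858 in Cxcl10-/-, against 3.72, 2.94 and 5.52 in WT. Neither ratio overlapped between the groups (exact two-sided permutation p = 0.1 each, the smallest that 3 against 3 allows, and 0.18 after Benjamini-Hochberg adjustment over 9 such comparisons).

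The promoters of the 2 called genes are shown because the products of both act on E2F-controlled promoters, and Rbl1 is itself known as an E2F-controlled gene. Of the 10 genes, 7 had at least 1 entry in the RefSeq promoter table (GRCm38.p6), and Rb1, Ccnd1 and Ccnd2 had none. The lines give the 250 bases upstream of the annotated start, 5′ to 3′ on the gene's strand, at chr2:157204535-157204784 on the minus strand for Rbl1 and chr8:91069807-91070056 on the plus strand for Rbl2. Capitals mark matches to any of 3 motifs searched on both strands: an E2F motif (TTTCCCGC, TTTGGCGC, TTTCGCGC or TTTGCCGC), the CHR element (TTTGAA) and the GC box (GGGCGG).
Rbl1: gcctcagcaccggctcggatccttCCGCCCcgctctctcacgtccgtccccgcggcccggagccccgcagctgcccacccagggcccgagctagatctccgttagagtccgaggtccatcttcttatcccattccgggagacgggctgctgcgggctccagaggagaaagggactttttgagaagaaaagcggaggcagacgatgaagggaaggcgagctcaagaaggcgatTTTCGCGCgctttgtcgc
Rbl2: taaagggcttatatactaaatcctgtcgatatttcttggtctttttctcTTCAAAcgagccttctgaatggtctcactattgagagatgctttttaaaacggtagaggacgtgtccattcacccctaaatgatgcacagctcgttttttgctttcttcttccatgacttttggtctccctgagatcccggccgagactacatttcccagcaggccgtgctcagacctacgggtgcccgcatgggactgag
The E2F letters TTTCGCGC lay at -18 from the Rbl1 start, and 1.86% of 32851 promoter windows of this length held an E2F match. No E2F match was present in the Rbl2 window, which held the CHR letters on the reverse strand at -201 (16% of windows), and the Rbl1 window held a GC box on the reverse strand at -226 (32.7% of windows). The matches are letters in a window and no measure of binding.

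Cdkn2c, the INK4 inhibitor p18, had the widest standard error of the 10 genes. It had 0.03, 6.46 and 2.22 FPKM in Cxcl10-/- libraries, against 10.62, 27.13 and 15.70 FPKM in WT libraries. The lowest of these values rests on 1 expected count, beside 101 and 39 counts in the other Cxcl10-/- libraries and 172, 472 and 318 counts in WT. The groups did not overlap, but the log2 fold change of -2.74 ± 0.92 (SE) did not pass (adjusted p = 0.0902, edgeR). It passed in 5 of 22 alternatives, among them without Cxcl10-/- replicate 1 (-2.17, adjusted p = 0.0388) and without Cxcl10-/- replicate 2 (-4.00, adjusted p = 0.0318).

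The CIP/KIP inhibitors did not pass. Cdkn1a, the p53-responsive inhibitor p21, had 9.23, 7.23 and 8.84 FPKM in Cxcl10-/- libraries, against 4.83, 4.77 and 2.22 FPKM in WT libraries. Every Cxcl10-/- library lay above every WT library, with a log2 fold change of 0.89 ± 0.65 (SE, adjusted p = 0.44, edgeR). Few reads stood behind it, 484 expected counts over the Cxcl10-/- libraries and 261 over the WT libraries, and its count was fractional in 9 of 9 libraries, which marks reads shared with other features. Cdkn1b, the inhibitor p27, averaged 5.23 ± 1.78 FPKM in Cxcl10-/- and 3.57 ± 0.836 FPKM in WT (SD, n = 3), overlapped between the groups and had a log2 fold change of 0.04 ± 0.45 on the count scale (adjusted p = 0.972, edgeR). The transcript length implied by its count and FPKM was 2390 to 2715 bases in Cxcl10-/- and 2842 to 4014 bases in WT. Limma on log2(FPKM + 1) gave it 0.43 (adjusted p = 0.486), and edgeR with that length as an offset 0.46 (adjusted p = 0.573).

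Among the D cyclins and their kinase, Ccnd3 and Cdk6 had all Cxcl10-/- libraries above all WT libraries, but neither passed. Ccnd3 had 79.46, 94.70 and 70.77 FPKM in Cxcl10-/- libraries, against 42.44, 49.44 and 54.10 FPKM in WT libraries, a log2 fold change of 0.56 ± 0.22 (SE, adjusted p = 0.14, edgeR). Cdk6, a partner kinase of the D cyclins, had 49.03, 43.49 and 46.31 FPKM in Cxcl10-/- libraries, against 30.60, 27.59 and 33.22 FPKM in WT libraries, a log2 fold change of 0.48 ± 0.17 (SE, adjusted p = 0.102, edgeR). Ccnd3 passed in 2 of 22 alternatives, both limma on FPKM (0.73, adjusted p = 0.0459, with a pseudocount of 1), and its log2 fold change was 0.14 after the GC correction. Cdk6 passed in 1 of 22, the GC correction (0.67, adjusted p = 0.0384). Ccnd1 spread from 2.91 to 15.52 FPKM within Cxcl10-/-, across the whole WT range of 5.91 to 9.21 FPKM (log2 fold change 0.27 ± 0.48, adjusted p = 0.778, edgeR).

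Counted over the 10 genes, 3 had Cxcl10-/- FPKM above all WT values and 3 had them below, against 18.3% and 11.9% of all tested genes. These shares describe this choice of genes and carry no test.

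**Figure D2:**
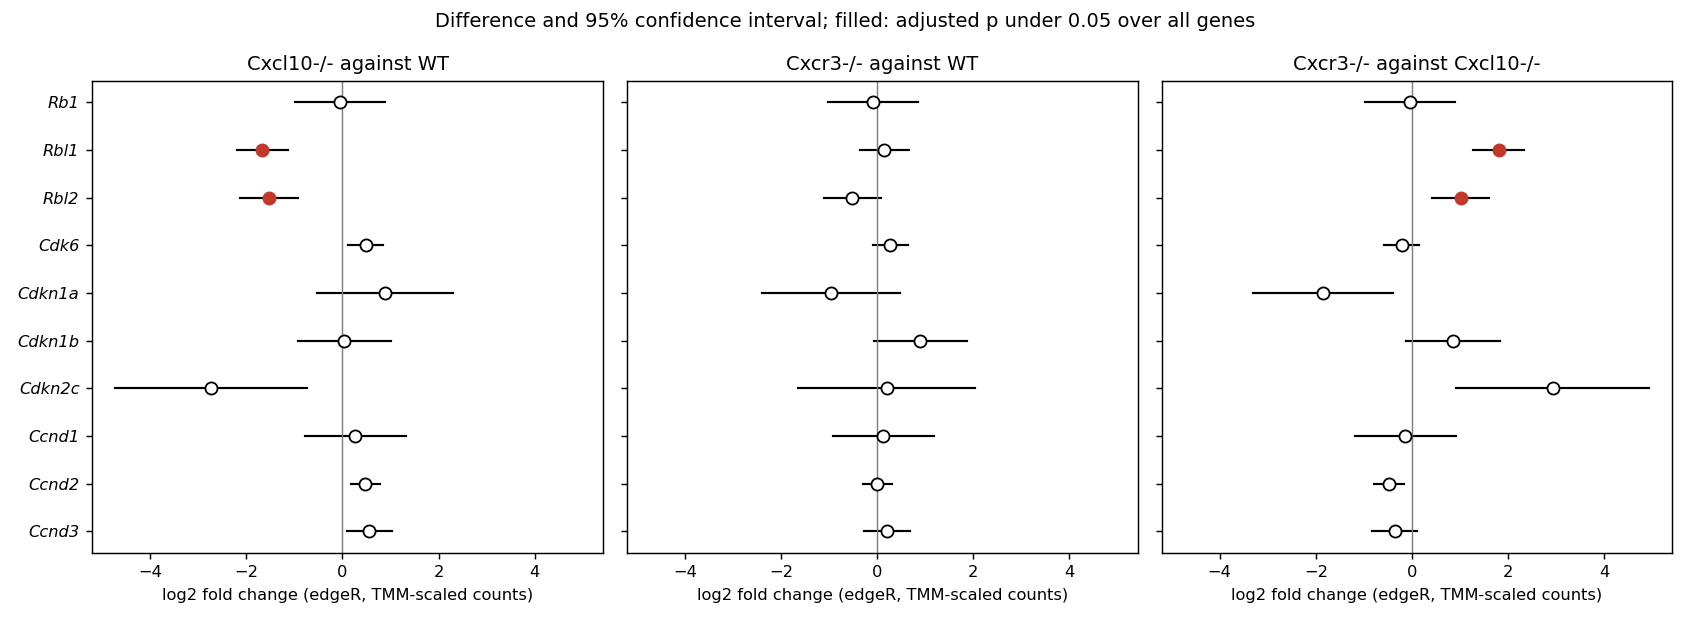
Log2 fold change of each gene (horizontal axis, edgeR on TMM-scaled counts) with its 95% confidence interval in the 3 comparisons. Filled points have an adjusted p under 0.05 over all 10866 tested genes, which are Rbl1 and Rbl2 in the left and right panels and none in the middle one.

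Ccnd2, the most abundant of the 10, also gave different values in counts and in FPKM. In TMM-scaled CPM, counts scaled to library size, it had 656, 645 and 653 CPM in Cxcl10-/- libraries, 402, 466 and 536 CPM in Cxcr3-/- libraries and 486, 502 and 414 CPM in WT libraries. On this count scale the Cxcl10-/- libraries were above all others, and the log2 fold change of 0.48 ± 0.14 (SE) against WT did not pass (adjusted p = 0.0615, edgeR), though it did in 3 of 22 alternatives. In FPKM it had 158.79, 240.64 and 144.07 in Cxcl10-/- libraries, 85.73, 135.56 and 120.44 in Cxcr3-/- libraries and the WT values given above, so the Cxcl10-/- and WT libraries overlapped and the Cxcr3-/- libraries were below all others.

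The count and the FPKM of a gene in 1 library together imply the transcript length by which its count was divided. For Rbl1 this length was 4862 to 4864 bases in every library, and its longest GENCODE M21 transcript is 4862 bases long. For Ccnd2, which has 8 annotated transcripts of 115 to 6330 bases, it was 4309, 2830 and 4455 bases in Cxcl10-/- libraries, 4881, 3418 and 4418 bases in Cxcr3-/- libraries and 2346, 3119 and 2900 bases in WT libraries. The Cxcr3-/- lengths were all above the WT lengths, as were those of 8.08% of the 8350 genes with at least 1 FPKM in every library. Limma on log2(FPKM + 1) accordingly gave Ccnd2 a log2 difference of 0.12 for Cxcl10-/- against WT and -0.53 for Cxcr3-/- against WT (adjusted p = 0.645), where the counts gave 0.48 and 0.00. With the implied length as an offset in edgeR, an alternative added after seeing the data, the values were 0.05 and -0.59. What the difference in implied length stems from was not tested.

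**Figure D3:**
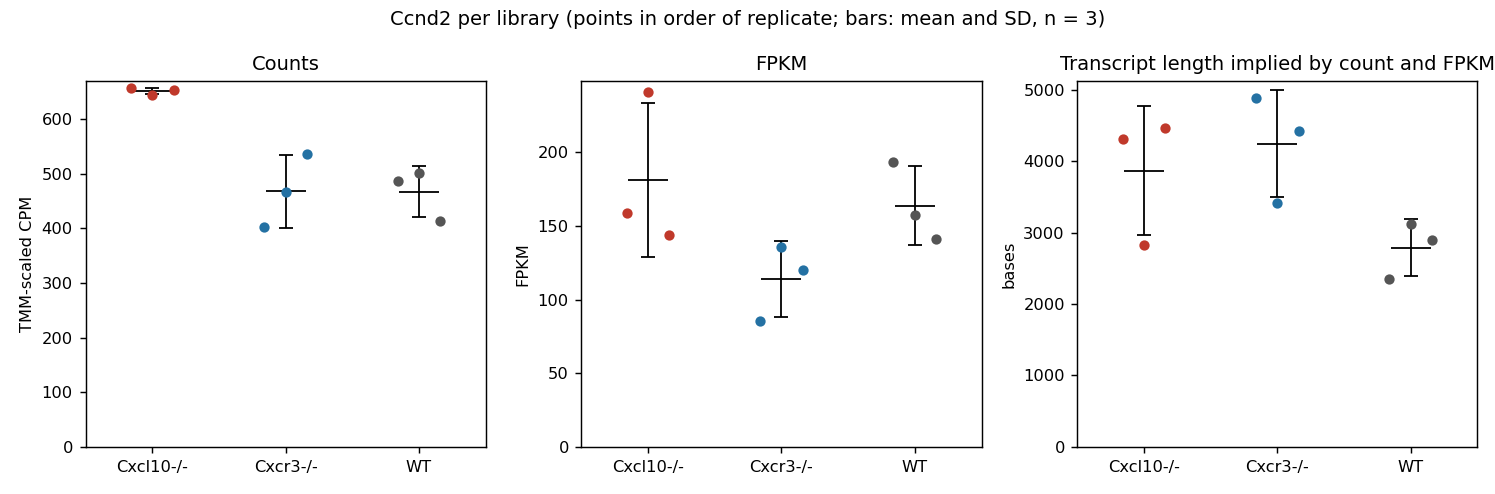
Ccnd2 in each library as TMM-scaled CPM (left), as FPKM (middle) and as the transcript length in bases implied by count and FPKM (right), with mean and SD (n = 3) and axes from 0. Cxcl10-/- is highest in counts, with 645 to 656 CPM, Cxcr3-/- is lowest in FPKM, with 85.73 to 135.56 FPKM, and WT has the shortest implied lengths except for an overlap with Cxcl10-/-.

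The second comparison, Cxcr3-/- against WT, bears on the loss of the receptor. None of the 10 genes passed, and neither did any other of the 10866 tested (0%). At an unadjusted p under 0.05, edgeR had 681 genes (6.27%) and 0 of the 10. DESeq2 called 78 genes and limma-voom 39 and limma on log2(FPKM + 1) 0, none of them among the 10. DESeq2 gave no adjusted p here for Cdkn1a, Cdkn1b, Cdkn2c, Rb1, Rbl2 and Ccnd1, so it could not call these genes. Rbl1 had 42.87, 27.05 and 25.53 FPKM in Cxcr3-/- libraries, which overlapped with WT, and a log2 fold change of 0.15 with a 95% interval of -0.37 to 0.66. Rb1 overlapped too, with a log2 fold change of -0.09 and an interval of -1.02 to 0.84. Rbl2 had 17.73, 12.74 and 14.91 FPKM in Cxcr3-/- libraries, of which 1 overlapped with WT, and a log2 fold change of -0.52 ± 0.27 (SE, adjusted p = 0.845, edgeR). In TMM-scaled CPM, its highest Cxcr3-/- library, at 82.8 CPM, lay below the lowest WT library, at 87.6 CPM.

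Among the 10 genes, the largest log2 fold changes in this comparison belonged to the 2 CIP/KIP inhibitors, in opposite directions. Cdkn1b had 9.06, 5.12 and 7.36 FPKM in Cxcr3-/- libraries, against 3.33, 4.50 and 2.88 FPKM in WT libraries. These did not overlap, and the log2 fold change was 0.90 ± 0.45 (SE, adjusted p = 0.835, edgeR). Cdkn1a had 1.97, 2.15 and 2.87 FPKM in Cxcr3-/- libraries, which overlapped with WT replicate 3, and a log2 fold change of -0.96 ± 0.66 (SE, adjusted p = 0.907, edgeR). In TMM-scaled CPM its Cxcr3-/- libraries, at 2.26 to 3.77 CPM, lay barely below that WT library, at 3.78 CPM. Of the 10 genes, Cdkn1b alone was above all WT libraries in FPKM and Ccnd2 alone below them, against 12.1% and 7.63% of all tested genes. Cdkn2c, Ccnd1, Ccnd3 and Cdk6 had log2 fold changes between 0.13 and 0.27, each with an interval that included 0.

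The third comparison sets the 2 knockouts side by side, and it shares its Cxcl10-/- and Cxcr3-/- libraries with the comparisons above. Rbl1 was 3.51-fold higher in Cxcr3-/- than in Cxcl10-/- (log2 fold change 1.81 ± 0.24, SE, adjusted p = 0.00174, edgeR) and passed in 22 of 22 alternatives. Rbl2 was 2.02-fold higher (1.01 ± 0.28, SE, adjusted p = 0.037, edgeR). Those were 2 of the 10 genes, against 10.5% of all tested genes (5.1% higher, 5.41% lower), and the count of 1142 was 423 without Cxcr3-/- replicate 1 and 517 without Cxcr3-/- replicate 3. At an unadjusted p under 0.05 there were 5 of the 10, against 26.2% of all tested genes. In FPKM, 3 of the 10 lay above all Cxcl10-/- libraries and 2 below them, against 12.7% and 16.4% of all tested genes. The Rbl2 call was less secure, since it passed in 9 of 22 alternatives and was lost without Cxcl10-/- replicate 3, without any 1 of the Cxcr3-/- libraries and without any 1 of the WT libraries (adjusted p from 0.0537 to 0.132).

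The other 8 genes did not pass. Ccnd2 had a log2 fold change of -0.48 ± 0.14 (SE, adjusted p = 0.0521, edgeR), and the groups did not overlap in counts or in FPKM. Cdkn2c had 26.52, 17.89 and 20.43 FPKM in Cxcr3-/- libraries, all above the Cxcl10-/- values, with a log2 fold change of 2.93 ± 0.92 (SE, adjusted p = 0.0634, edgeR). Cdkn1a, at 1.97 to 2.87 FPKM in Cxcr3-/- and 7.23 to 9.23 FPKM in Cxcl10-/-, had a log2 fold change of -1.85 ± 0.67 (SE, adjusted p = 0.101, edgeR). Cdkn1b, Rb1, Ccnd1, Ccnd3 and Cdk6 had adjusted p-values of 0.254 or more.

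The rest of the pathway was followed through lists of related genes, whose called members are counted here for Cxcl10-/- against WT, where 7.22% of all tested genes were called and 3.7% were lower. A single call in a list of 12 or 16 is near that share and is not read as a result about the list. Of 15 tested E2F, DP and DREAM subunits, 0 rose and 2 fell: Tfdp1, the dimer partner of E2Fs (-1.24 ± 0.20, adjusted p = 0.00543), and E2f8, an atypical repressor E2F (-1.90 ± 0.45, adjusted p = 0.0288). Of 16 E2F-controlled replication genes, Pcna, the DNA polymerase clamp, fell slightly (-0.44 ± 0.12, adjusted p = 0.0478) and 15 did not pass. Of 12 other CDKs and cyclins of G1 and S, 1 fell, the mitotic kinase Cdk1 (-1.42 ± 0.30, adjusted p = 0.0164). Of 12 genes of CDK inhibitor and G1 cyclin turnover, 1 fell, Skp2, the F-box protein that marks p27 for degradation (-1.61 ± 0.43, adjusted p = 0.0443). All these are edgeR log2 fold changes ± SE with p-values adjusted over all tested genes.

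Of the cell-cycle lists, mitosis genes had the most called members: 6 of 12 fell and 0 rose, with a median log2 fold change of -1.67 against 0.06 over all tested genes. Nusap1, a spindle protein, had a log2 fold change of -5.33 ± 0.67 (adjusted p = 0.00197, edgeR), and Top2a, the DNA topoisomerase of dividing cells, -1.53 ± 0.29 (adjusted p = 0.0106, edgeR). The list summed to 52.0 to 115 FPKM in Cxcl10-/-, 272 to 373 FPKM in Cxcr3-/- and 226 to 332 FPKM in WT. Among 14 tested genes of p53 and its targets, Btg2 rose (4.18 ± 0.84, adjusted p = 0.0134, edgeR) while Trp53inp1 (-1.46 ± 0.38, adjusted p = 0.0394, edgeR) and the death receptor Fas (adjusted p = 0.0306, edgeR) fell. Fas had 2 counts in all over the Cxcl10-/- libraries against 188 over the WT libraries, so the size of its fold change is poorly determined. None of the 3 tested among 5 other CDK inhibitors, the 9 tested Myc network genes or the 2 tested FoxO factors passed. Cdkn2b was listed at 0 in all 9 libraries and Cdkn2a at 0 in all Cxcl10-/- and WT libraries.

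In Cxcr3-/- against WT, 0 genes of any of these lists passed. In Cxcr3-/- against Cxcl10-/-, 8 of 12 mitosis genes were higher, where 10.5% of all tested genes were called and 5.1% were higher. Of 12 other CDKs and cyclins, Cdk1 and Ccna2 were higher. Of 15 E2F, DP and DREAM subunits, Tfdp1, E2f8 and Rbbp4 were higher and Lin37 was lower, and of 16 replication genes Mcm2, Rrm2 and Mcm4 were higher. Single genes were called higher among 12 turnover genes (Skp2), 14 genes of p53 and its targets (Fas, with Btg2 lower) and 9 Myc network genes (Myc, 0.97 ± 0.22, adjusted p = 0.0181, edgeR), shares that lie near that of all tested genes.

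**Figure D4:**
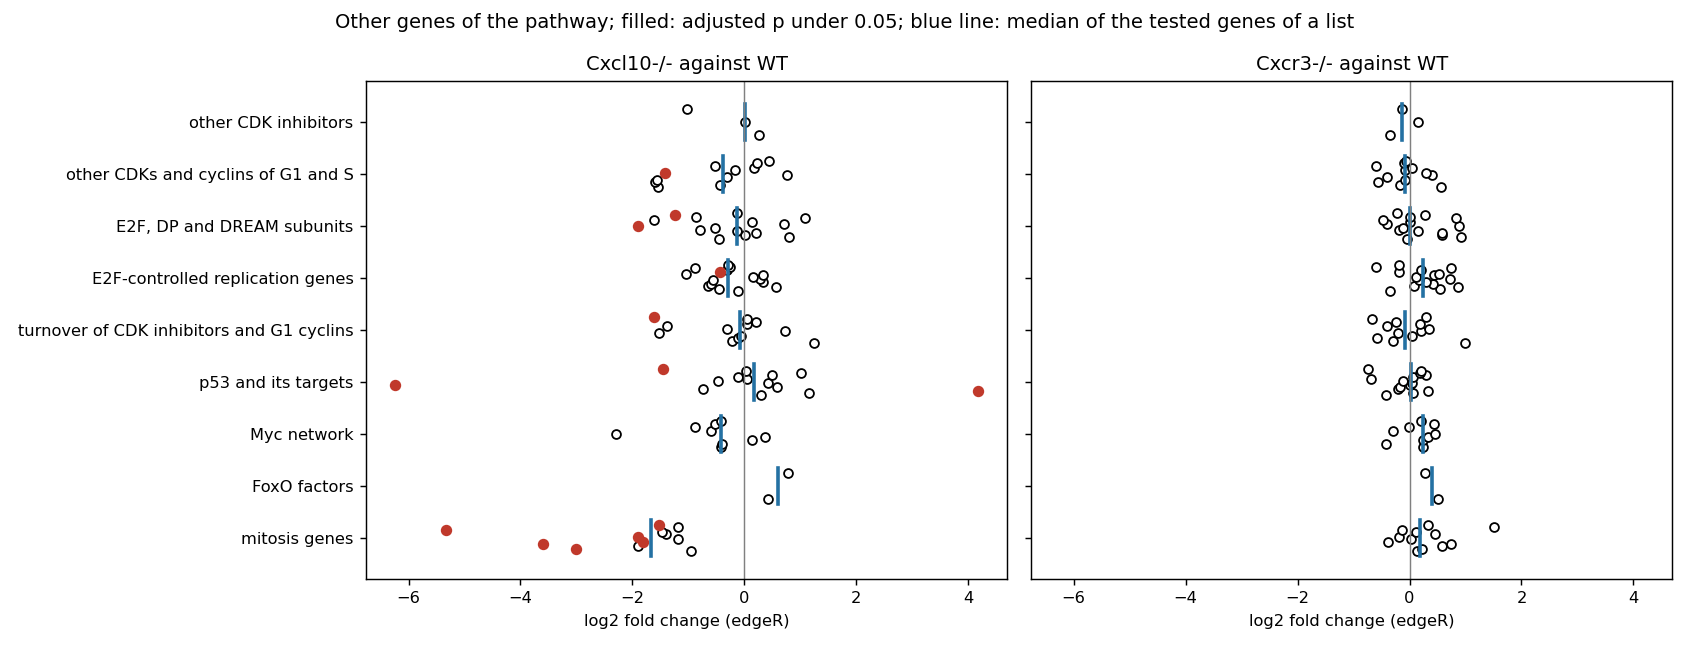
The edgeR log2 fold change (horizontal axis) of the tested genes of 9 lists of the pathway in Cxcl10-/- against WT (left) and Cxcr3-/- against WT (right). Each circle is 1 gene, filled where its adjusted p is under 0.05, and the blue line is the list's median, which is -1.67 for mitosis genes on the left and 0.18 on the right.

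Markers of other cell types and immediate-early genes differed in the Cxcl10-/- group as well. Endothelial markers summed to 482 to 684 FPKM in Cxcl10-/-, 50.7 to 88.6 FPKM in Cxcr3-/- and 71.0 to 87.7 FPKM in WT, 5 of 12 were called higher in Cxcl10-/- than in WT, and none was at 0 in a whole group. Fabp4 alone averaged 361 FPKM in Cxcl10-/-, 20.1 in Cxcr3-/- and 9.94 in WT, and Emcn 43.5, 26.1 and 43.6. The list did not move as 1: log2 fold changes against WT were -0.03 for Emcn, -0.33 for Tek and 0.23 for Pecam1, none called. Stromal and bone markers summed to 93.1 to 350 FPKM in Cxcl10-/-, 17.4 to 22.5 FPKM in Cxcr3-/- and 16.5 to 21.4 FPKM in WT, with 4 of 6 tested called higher, Bglap at 0 in every library and Adipoq and Col1a1 at 0 in all WT libraries. Runx2, which averaged 14.6 FPKM of the WT sum, went the other way, with 9.69 FPKM in Cxcl10-/- (-0.64 ± 0.23, SE, adjusted p = 0.108, edgeR). Immediate-early genes, such as Fos and Egr1, summed to 404 to 756 FPKM in Cxcl10-/-, 74.3 to 96.4 FPKM in Cxcr3-/- and 82.0 to 95.4 FPKM in WT, with 12 of 13 tested called higher. Of the genes called, Stab1, Stab2, Flt4, Ibsp, Cxcl12, Adipoq, Fos and Fosb averaged under 1 FPKM in both Cxcr3-/- and WT. They passed the filter on low values through Cxcl10-/- alone. The shares of tested genes called in these lists are thus partly set by the filter and carry no support of their own. The part of these markers and immediate-early genes in the differences of Rbl1, Rbl2 and the mitosis genes was not tested. Nor was that of the lower mitochondrial share, the fewer genes detected or the lower correlation among the Cxcl10-/- libraries.

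For the other marker lists, fewer or no genes were called against WT. Erythroid markers summed to 90.1 to 635 FPKM in Cxcl10-/-, 60.2 to 64.7 FPKM in Cxcr3-/- and 51.3 to 97.5 FPKM in WT, with Hba-a1 called higher of 6 tested, and Hba-a1, Hba-a2 and Hbb-bs called lower in Cxcr3-/- than in Cxcl10-/-. Neutrophil markers summed to 14.5 to 181 FPKM in Cxcl10-/-, 4.89 to 24.98 FPKM in Cxcr3-/- and 11.1 to 22.8 FPKM in WT, with none of the 4 tested called. The median log2 fold change of those 4 in Cxcl10-/- against WT was 3.52, a value partly set by the filter. Lcn2 and Ngp passed it through Cxcl10-/- alone, where they spread from 0 to 11.37 and from 0 to 16.37 FPKM. Of the markers below the filter, Camp, Elane and Mpo averaged lower in Cxcl10-/- than in WT, and Ltf higher. Monocyte and macrophage markers summed to 20.2 to 48.1 FPKM in Cxcl10-/-, 9.77 to 15.5 FPKM in Cxcr3-/- and 9.55 to 25.3 FPKM in WT, also with none called against WT. T and NK cell markers summed to 171 to 225 FPKM in Cxcl10-/-, 201 to 406 FPKM in Cxcr3-/- and 332 to 401 FPKM in WT, with Nkg7 called lower of 2 tested. Nkg7 made up nearly all of these sums, with 196, 305 and 357 FPKM on average in Cxcl10-/-, Cxcr3-/- and WT. The T cell genes Cd3e, Cd3d, Cd3g and Trbc2 averaged 0.0633 FPKM or less in every group. Megakaryocyte markers summed to 275 to 443 FPKM in Cxcl10-/-, 464 to 576 FPKM in Cxcr3-/- and 284 to 386 FPKM in WT, and B cell markers to 39.3 to 134 FPKM in Cxcl10-/-, 13.7 to 77.0 FPKM in Cxcr3-/- and 48.6 to 70.3 FPKM in WT. In the same order of groups, Pf4 alone averaged 290, 474 and 280 FPKM of the first sum. Cd79b alone averaged 94.3, 48.0 and 58.0 FPKM of the B cell sum. The 8 markers removed by the sort summed to 10.5 to 19.8 FPKM in Cxcl10-/-, 10.6 to 27.4 FPKM in Cxcr3-/- and 14 to 27.0 FPKM in WT. No tested gene of these last 3 lists was called against WT.

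Limits on reading single genes differ across the 10. Counts of Rbl2 and Cdk6, like those of Cdkn1a, were fractional in 9 of 9 libraries, those of Ccnd3 in 7, of Ccnd1 in 4 and of Rb1 in 1. In GENCODE M21, Rbl2 overlaps Aktip, Rb1 overlaps Rcbtb2 and Lpar6, Ccnd1 overlaps LTO1 and Ccnd3 overlaps Bysl, each on the opposite strand. Whether counting used strand is not given in the sources used here, so reads of such pairs may not be separable. Across all genes, log2 fold change also followed the GC content of the transcript (Spearman rho 0.433 over 10856 genes in Cxcl10-/- against WT, genes not being independent). After a correction for this trend, Rbl1 had -1.28 (adjusted p = 0.0141) and Rbl2 -1.47 (adjusted p = 0.0151, edgeR).

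**Figure D5:**
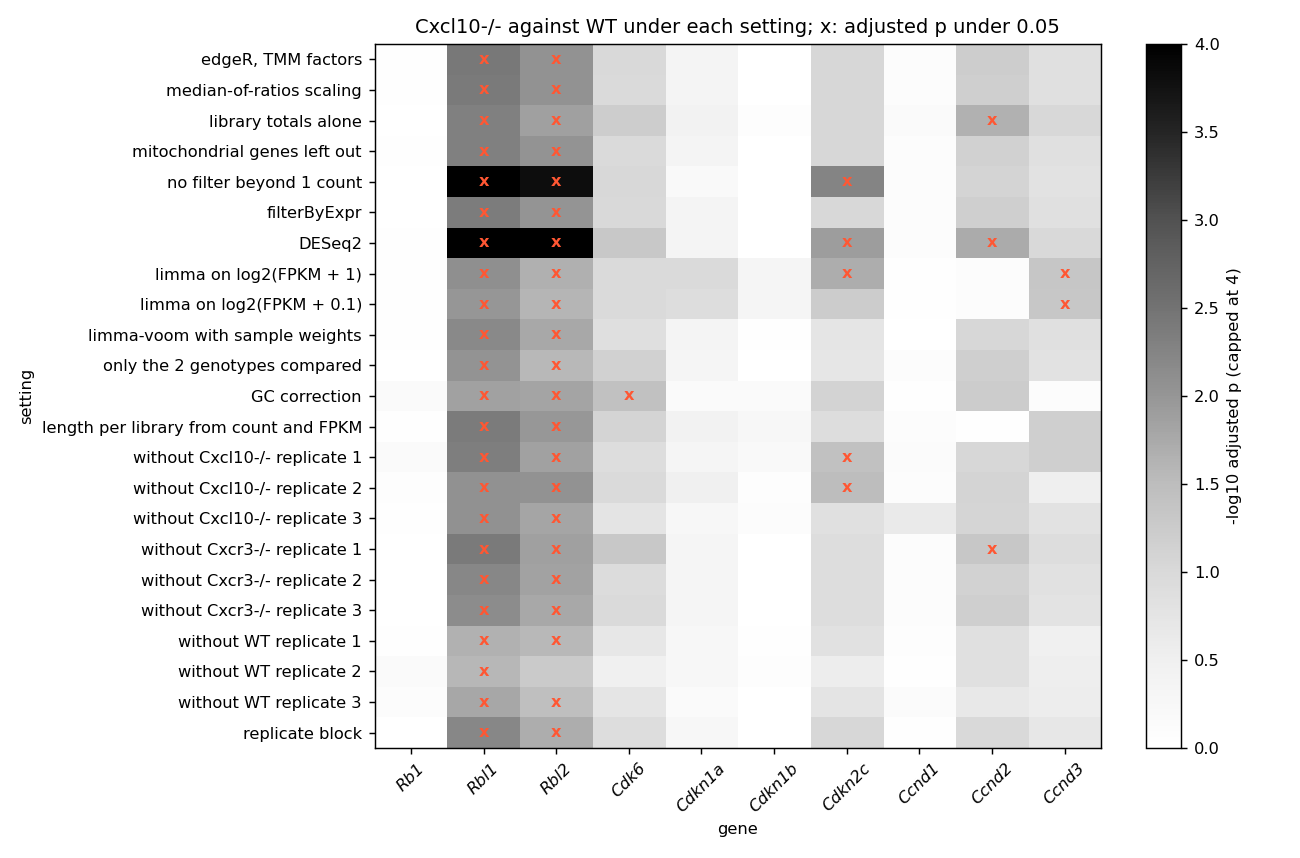
Adjusted p of each of the 10 genes (columns) in Cxcl10-/- against WT under the analysis reported and 22 alternatives (rows), as -log10 in grey, capped at 4. Crosses mark an adjusted p under 0.05. Rbl1 has a cross in every row, Rbl2 in every row but that without WT replicate 2, and Cdkn2c in 5 of the alternatives.

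Over the 9 libraries, the transcripts most like Rbl1 in log2 TMM-scaled CPM were Alg10b (Pearson r = 0.988), Itga4 (0.984) and mt-Nd2 (0.984). Those most like Rbl2 were Slc35f6 (0.973), Mmrn1 (0.967) and Sgo2a (0.96), and those most like Ccnd2 were Cops9 (0.967), D8Ertd738e (0.966) and Crnkl1 (0.961). These are descriptions with no test, since the 9 points fall into 3 genotypes and the Cxcl10-/- libraries differ from the rest in many genes.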

How the data were processed

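RNA of sorted LT-HSCs was sequenced in 9 libraries, 3 per genotype, and the replicates are separate mice per the design text. The table deposited by the authors gives FPKM and expected counts per gene and library, per the file headers. Since only 87.1% of the count values are whole, they were treated as estimates of the RSEM kind. RSEM, StringTie, HISAT2 and fastp appear in the submitters' processing notes. For versions, genome build, annotation and strand setting, the answer is not given in the sources used here. Reads carry no molecular identifiers, so copies made by amplification cannot be told from separate molecules in the counts. The edgeR standard errors include the spread among the 3 libraries of each genotype.

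Expected counts were rounded, and genes were kept if they averaged 1 FPKM or more across the 9 libraries. All libraries entered 1 quasi-likelihood model of genotype with TMM factors (edgeR 4.0.16, R 4.3.3). P-values were adjusted by Benjamini-Hochberg over all 10866 genes, with calls under 0.05. A count test was used because counts are deposited; limma 3.58.1 on log2(FPKM + 1) or log2(FPKM + 0.1), voom and DESeq2 1.42.0 were alternatives, beside other scalings, filters, a GC correction, a replicate block and leaving out each library. Each difference is the group named first less the other.

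The 10 genes, the other lists and the alternatives were chosen with earlier results of these data known. All 10 genes were named. Up to 4 genes per list were named among those called, by their p for any difference among genotypes; genes named beyond that were chosen after their values were seen. For the 3 genes of the 10 with the smallest such p, the 3 most correlated genes were named. Promoters came from RefSeq, GRCm38.p6.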

Additional observations from a re-analysis of the deposited data

How the results depend on the processing

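In Cxcl10-/- against WT, the 785 called genes became 1183 with no filter beyond 1 count, 1498 with DESeq2, 414 with only the 2 genotypes compared and 496 with the GC correction. Library totals alone gave 890, of which 566 were higher and 324 lower, against 383 higher and 402 lower with TMM factors, and limma on log2(FPKM + 1) gave 663 higher and 345 lower. Without WT replicates 1, 2 and 3 in turn the count was 229, 193 and 253, and over all single libraries left out it ran from 193 to 1003. In Cxcr3-/- against WT, the count of 0 became 38 with no filter, 78 with DESeq2 and 39 with voom, and ran from 0 to 6 with single libraries left out, with 0 of the 10 genes called each time. For DESeq2 this covers only part of the 10, since Cdkn1a, Cdkn1b, Cdkn2c, Rb1, Rbl2 and Ccnd1 had no adjusted p. In Cxcr3-/- against Cxcl10-/-, the 1142 called genes became 1814 with DESeq2, 625 with voom and 423 with only the 2 genotypes compared, and ran from 423 (without Cxcr3-/- replicate 1) to 1407. Without Cxcr3-/- replicate 3 it was 517. The 912 genes with any difference became 1588 with no filter and 1816 with DESeq2, and ran from 400 to 1037.

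Of the 10 genes, 2 were called in each of Cxcl10-/- against WT, Cxcr3-/- against Cxcl10-/- and the test of any difference. With DESeq2 these became 4, 5 and 4, and with limma on log2(FPKM + 1) 4 in the first and 4 in the last. Voom and the fit of only 2 genotypes each called 1 in Cxcr3-/- against Cxcl10-/-. With single libraries left out the 3 counts each ran from 1 to 3. The replicate numbers were checked for pairing: deviations of same-numbered libraries correlated between -0.082 and 0.018, so the numbers were not taken to pair mice. A fit with the replicate block gave 442 called genes in Cxcl10-/- against WT, 483 for any difference, and 1 of the 10 genes in Cxcr3-/- against Cxcl10-/-, with Rbl2 at an adjusted p of 0.0509. The causes of these shifts were not tested.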

Other observations

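The balance of the 2 CIP/KIP inhibitors, a comparison chosen after the values were seen, set the Cxcr3-/- libraries apart. The ratio of Cdkn1a to Cdkn1b in FPKM was 0.217, 0.420 and 0.390 in Cxcr3-/- libraries, against 1.45, 1.06 and 0.771 in WT libraries, and 1.28, 1.55 and 2.33 in Cxcl10-/- libraries. The Cxcr3-/- ratios were below those of both other groups without overlap. The exact two-sided permutation p was 0.1 against WT and 0.1 against Cxcl10-/-, the smallest that 3 against 3 allows, and 0.18 after Benjamini-Hochberg adjustment over 9 ratio comparisons. Cdkn1a rested on 123 expected counts over the 3 Cxcr3-/- libraries, so the ratio is imprecise. The length by which Cdkn1b counts were divided also differed between libraries, from 2390 to 4062 bases.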
